A study of Mus musculus with 8 samples.

Results

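Regulatory T cells (Tregs) are CD4 T cells that express the transcription factor Foxp3 and restrain other immune cells. The comparison described here asked what loss of Pparg changed in the transcriptome of Tregs sorted from mouse skin, and it rests on 4 RNA sequencing libraries of the 8 in the series. They are the columns for skin of each genotype, chosen by their labels and not by any measured value. WT skin (n = 2) was Pparg+/+ Foxp3-Cre and KO skin (n = 2) was Ppargf/f Foxp3-Cre, both untreated, taken at day 13 per the sample titles and at 2 weeks of age per the design text. Foxp3-Cre was thus present in both genotypes. The recombinase is expressed where Foxp3 is, so the floxed gene is deleted in Foxp3-expressing cells and not in the keratinocytes, fibroblasts or myeloid cells around them. Each library was made from 1000 cells, and the labels used here do not say how many animals gave them. WT spleen and KO spleen (n = 2 each, with the same genotypes) entered the same model, so that all 4 groups shared the estimate of the spread.

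PPARγ, the product of Pparg, is a nuclear receptor that pairs with RXR, binds fatty acids and their derivatives, and activates genes of lipid storage, uptake and oxidation. It is best known as the driver of fat cell differentiation, and in Tregs it is known from visceral fat, where it supports the local Treg population. Tregs of barrier tissues differ from those of spleen in carrying an effector program that includes Il10, Areg, Gata3 and receptors for tissue retention, while resting lymphoid Tregs carry Tcf7 and Ccr7.

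Library totals in skin ran from 3115832 to 4466963 counts, 17262 to 18439 genes had a count, and mitochondrial genes took 1.36 to 1.68% of counts. Replicate 1 of every group expressed Xist and replicate 2 expressed the Y-linked gene Ddx3y, so sex was balanced between the genotypes, and no animal can have given both libraries of a group alone. Treg genes were high in each skin library. Foxp3 measured 330.3 and 380.1 CPM in WT and 261 and 328 CPM in KO, Il2ra 389 and 398 CPM in WT and 299.6 and 299.9 CPM in KO, and Ctla4 3245 and 2867 CPM in WT and 2481 and 2731 CPM in KO. CPM is the count of a gene scaled by TMM to a common library size. Of 106 markers of other cell types in 12 lists, 82 stayed under 5 CPM of the total count in every skin library and 35 of these were at 0. Keratinocyte Krt5 was at most 0.841, myeloid Lyz2 at most 1.96 and Langerhans cell Cd207 at most 0.280. Others were well above that. The endothelial list held Pecam1 at 81.2 to 125 CPM, while its other 8 members were at most 2.69. Among fibroblast genes Col1a1 ran from 7.29 to 14.3 CPM and the other 8 were at most 1.28, and among keratinocyte genes Perp ran from 5.59 to 22.4 CPM. Of the B cell genes Ighm was at 504 to 766 CPM and Cd79b at 16.05 to 29.1 CPM, and the rest were at most 3.08. The Langerhans cell marker Epcam was at 93.8 to 144 CPM. In a bulk library, fewer cells that express a gene and less RNA of it per cell cannot be told apart.

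**Figure D1:**
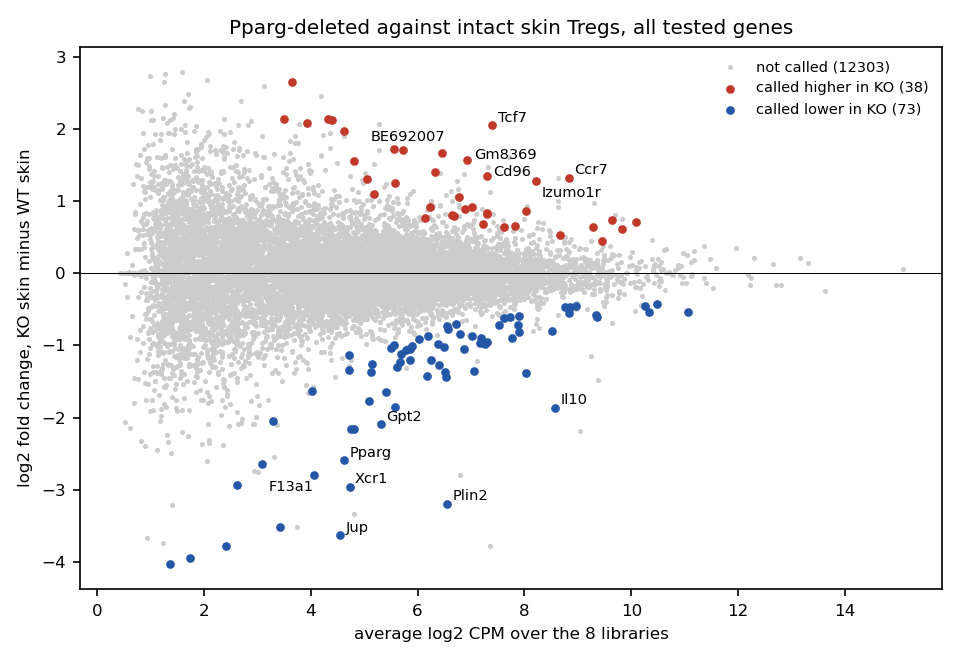
Log2 fold change of KO skin against WT skin (vertical axis) against the average log2 CPM over the 8 libraries (horizontal axis), 1 point per tested gene. Coloured points are the 38 genes called higher and the 73 called lower at an adjusted p under 0.05 in edgeR's quasi-likelihood test, and the named genes kept their call in all 18 alternative settings.

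Of 12414 tested genes, 111 passed an adjusted p of 0.05 in edgeR's quasi-likelihood test, which is 0.894% of those tested. In KO skin 38 were higher (0.306%) and 73 lower (0.588%). At an unadjusted p under 0.05 there were 684 higher and 658 lower. Whatever their p, 6315 of the 12414 tested genes were above 0 in KO against WT skin, a baseline for the list counts below. With upper-quartile scaling in place of TMM the calls split into 52 higher and 64 lower. The change of called genes had a median size of 1.05 on the log2 scale, from 0.42 to 4.03, and 61 changed by more than 1, of which 41 were lower. In each of the 111 called genes both KO libraries lay on the same side of both WT libraries, as they did in 4951 (39.9%) of all tested genes, 20.1% with KO higher and 19.8% with KO lower. The calls that held in all 18 alternative settings were 13, namely Pparg, Plin2, Il10, Jup, Xcr1, F13a1 and Gpt2 lower and Tcf7, Ccr7, Cd96, Izumo1r, Gm8369 and BE692007 higher.

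Many other calls rested on single libraries. Of the 111 calls, 92 were lost without WT skin replicate 1, 25 without WT skin replicate 2, 82 without KO skin replicate 1 and 74 without KO skin replicate 2. Other settings ended 3 calls with DESeq2's size factors, 9 with upper-quartile scaling, 4 by DESeq2's test, 16 by limma-voom, 23 in the fit of the 4 skin libraries alone, 4 with a replicate block, 35 without robust estimation and 91 against a fold of 1.5. Apart from the last, these are given beside the genes. In WT skin replicate 1 a lower call tended to be at its highest: in 61 of the 73 lower genes (83.6%) this library lay above WT skin replicate 2, against 51.4% of all tested genes. Among the 38 higher genes it lay above replicate 2 in 10 (26.3%). The KO skin libraries lay in either order for the lower genes, replicate 1 above replicate 2 in 36 of 73, and in 25 of the 38 higher genes. Since one replicate of each group expressed Xist and the other Ddx3y, sex moved with this spread. A fit with a replicate block, which takes up that split, gave 135 calls, 107 of them among the 111.

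The spleen libraries give the same contrast in other samples. The labels do not say whether skin and spleen libraries of the same number came from the same animals. Agreement between the tissues may therefore not be independent. Of the 38 genes higher in KO skin, 27 (71.1%) were also above 0 in KO against WT spleen, with a median log2 fold change there of 0.23. Of the 73 lower genes, 51 (69.9%) were below 0 in spleen, with a median of -0.28. Over all tested genes 49.5% were above and 50.4% below 0 in spleen, and the median was -0.0020. In spleen itself 35 genes passed (0.282%), 9 of which had also passed in skin. They were Pparg, Frmd5, Gpt2, Itga1, Zbtb32 and Nkg7, lower in both tissues, Iigp1, higher in both, and Psmd3 and Vars, which were higher in KO skin and lower in KO spleen.

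**Figure D2:**
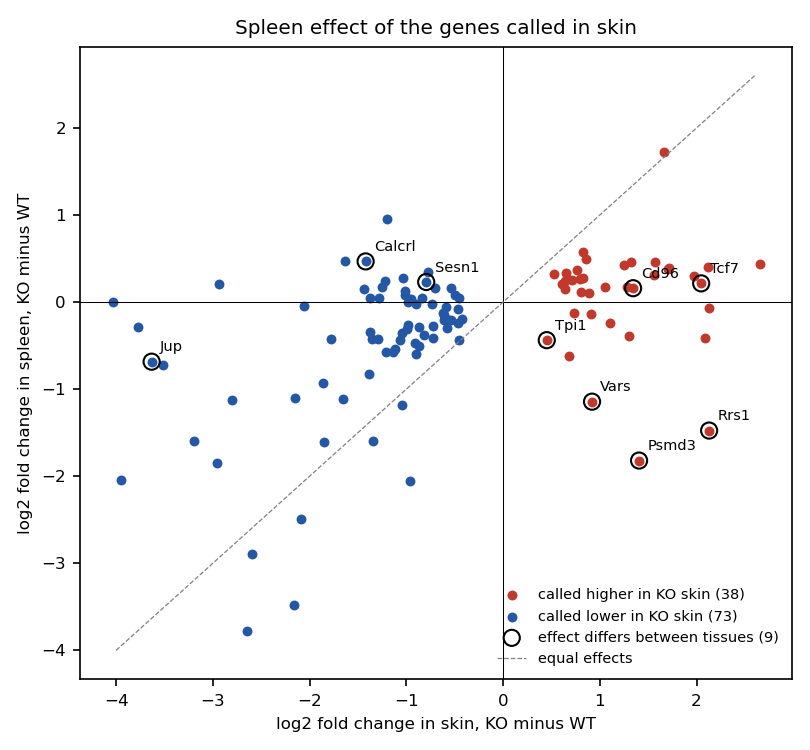
Log2 fold change of KO against WT in skin (horizontal axis) and in spleen (vertical axis) for the 111 genes called in skin, red where higher and blue where lower in KO skin. Of the higher genes 27 of 38 lay above 0 in spleen, and of the lower genes 51 of 73 lay below 0.

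Pparg (chromosome 6, 115360951 to 115490399, mm10) fell in KO skin. It stood at 75.7 and 59.8 CPM in WT skin and 8.46 and 13.3 CPM in KO skin (log2 fold change -2.59 ± 0.326 SE, edgeR adjusted p = 0.000609). The groups did not overlap, and each KO skin library still held reads of the gene. The table counts whole genes, so whether those reads fall in the deleted part is not shown. Among the 14 tested genes for PPAR, RXR and LXR receptors and their coregulators, Pparg was the member that passed, none rose, and 7 were above 0 (median log2 fold change -0.0056, against 0.0070 over all tested genes). The corepressor gene Ncor1 had the next smallest p, with 473 and 362 CPM in WT and 308 and 288 CPM in KO skin (adjusted p = 0.0930 in edgeR). Of 127 tested genes within 10 Mb of Pparg, 3 passed: Pparg itself, Bhlhe40 and Tpi1. Without Pparg that is 2 of 126 (1.59%), beside 0.894% of all tested genes.

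Plin2 (chromosome 4, 86648386 to 86670060) encodes perilipin 2, which coats lipid droplets and is a textbook PPAR target. It fell from 358 and 233 CPM in WT skin to 36.5 and 27.2 CPM in KO skin (log2 fold change -3.19 ± 0.265 SE, edgeR adjusted p = 0.000122). The highest KO library lay far below the lowest WT library. The gene for the rate-limiting enzyme of phosphatidylcholine synthesis, Pcyt1a, fell from 128 and 93.9 to 53.6 and 36.5 CPM (log2 fold change -1.29 ± 0.228 SE, edgeR adjusted p = 0.00856). Lonp2, a protease of peroxisomes, went from 264 and 233 to 155 and 169 CPM (log2 fold change -0.62 ± 0.125 SE, edgeR adjusted p = 0.0242), and Gm2a, a lysosomal glycolipid carrier, from 2819.9 and 2743 to 1873 and 2273 CPM (log2 fold change -0.42 ± 0.0982 SE, edgeR adjusted p = 0.0499). Pcyt1a, Lonp2 and Gm2a did not pass without WT skin replicate 1 (adjusted p = 0.192 to 0.267 in edgeR). Gm2a did not pass without WT skin replicate 2, WT spleen replicate 1 or without WT spleen replicate 2 (adjusted p = 0.0520 to 0.0723 in edgeR). Lonp2 and Gm2a did not pass without KO skin replicate 1 (adjusted p = 0.236 to 0.415 in edgeR). Pcyt1a and Lonp2 did not pass without KO skin replicate 2 (adjusted p = 0.0914 to 0.147 in edgeR). Gm2a did not pass with upper-quartile scaling, in the skin libraries alone, with a replicate block or without robust estimation.

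Around Plin2, other members of the lipid lists did not pass. Of 14 tested lipid droplet coat and lipase genes only Plin2 passed and 9 were below 0 (median -0.18), of 23 tested PPAR target genes only Plin2 passed and 18 were below 0 (median -0.18), and of 26 tested genes of fatty acid uptake and oxidation none passed in edgeR and 20 were below 0 (median -0.16). All 3 medians kept their sign under each scaling and without each skin library. They are not independent, because the lists share members. Plin2 is in the droplet and PPAR target lists, and Cpt1a and Slc25a20 are in the PPAR target and fatty acid lists. The droplet gene Hilpda, an inhibitor of lipolysis, measured 473 and 407 CPM in WT and 264 and 338 CPM in KO skin (edgeR adjusted p = 0.0796). Cpt1a, which feeds fatty acids into mitochondria, measured 202 and 185 CPM in WT and 144 and 118 CPM in KO (edgeR adjusted p = 0.0858), the carnitine carrier gene Slc25a20 101 and 81.5 CPM in WT and 64.5 and 60.3 CPM in KO (0.181), the thiolase gene Acaa2 169 and 169 CPM in WT and 114 and 116 CPM in KO (0.102), and the triglyceride synthesis gene Dgat1 229 and 179.7 CPM in WT and 148 and 126 CPM in KO (0.421). In each of these genes both KO libraries were below both WT libraries, as in 19.8% of all tested genes. They were named for having the smallest p in their lists, which favours such a split. Of 26 sterol and fatty acid synthesis genes 16 were above 0 (median 0.058) and none passed in edgeR.

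PPARγ with RXR binds repeats of the letters AGGTCA. Promoters of a pair of genes that fell are shown because both hold these letters, with the match in capitals (TGACCT is AGGTCA read on the other strand). Each sequence is the 250 bases before the gene's start, from RefSeq on GRCm38.p6 and written 5′ to 3′ along the gene, for Plin2 chr4:86670060-86670309 on the minus strand and for Frmd5 chr2:121807058-121807307 on the minus strand.
Plin2: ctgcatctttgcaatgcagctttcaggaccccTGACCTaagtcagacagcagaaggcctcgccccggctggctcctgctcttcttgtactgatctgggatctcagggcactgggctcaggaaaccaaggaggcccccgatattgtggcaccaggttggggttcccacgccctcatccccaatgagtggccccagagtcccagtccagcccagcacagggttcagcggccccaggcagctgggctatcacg
Frmd5: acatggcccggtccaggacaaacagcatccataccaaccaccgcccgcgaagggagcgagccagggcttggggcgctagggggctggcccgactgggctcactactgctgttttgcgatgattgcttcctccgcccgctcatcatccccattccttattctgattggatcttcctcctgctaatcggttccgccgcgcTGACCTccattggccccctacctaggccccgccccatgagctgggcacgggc
A RefSeq promoter was matched for 59 of the 73 lower genes, 22 of the 38 higher genes and 8914 of all tested genes. AGGTCA, searched on both strands, was in 7 (11.9%) of the lower, 6 (27.3%) of the higher and 1145 (12.8%) of all promoters. Its direct repeat with 1 base between the copies was in 0 promoters of called genes and in 4 (0.0449%) of all. A match of letters is a description and not a binding site, and a window without one says nothing about the receptor.

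Frmd5, a FERM domain gene of cell contacts, fell from 90.03 and 50.2 CPM in WT skin to 17.7 and 12.97 CPM in KO skin (log2 fold change -2.16 ± 0.302 SE, edgeR adjusted p = 0.00137). In spleen it went from 25.5 and 21.8 to 1.35 and 1.90 CPM, so the KO libraries were the lower ones in both tissues (edgeR adjusted p = 0.000351 in spleen). Frmd5 did not pass without WT skin replicate 1 (adjusted p = 0.0679 in edgeR).

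Among genes of metabolism, the amino acid enzyme genes Gpt2 and Glul fell in KO skin and the glycolysis genes Eno1 and Tpi1 rose. Gpt2 (chromosome 8, 85492576 to 85527560), the mitochondrial alanine aminotransferase, fell from 139 and 104 to 25.6 and 30.8 CPM (log2 fold change -2.09 ± 0.280 SE, edgeR adjusted p = 0.00104), and the other 20 tested genes of amino acid response and transport did not pass (median of the list 0.033). The next members by p were the aspartate aminotransferase gene Got1, with 309 and 326 CPM in WT and 235 and 229.9 CPM in KO skin (edgeR adjusted p = 0.115) and the stress factor gene Atf4, with 354 and 351 CPM in WT and 275 and 308 CPM in KO (0.421). Glul, glutamine synthetase, fell from 94.7 and 61.9 to 42.3 and 34.1 CPM (log2 fold change -1.03 ± 0.230 SE, edgeR adjusted p = 0.0395). Slc37a2, a sugar-phosphate exchanger of the endoplasmic reticulum, fell from 96.2 and 63.3 to 18.2 and 16.9 CPM (log2 fold change -2.15 ± 0.305 SE, edgeR adjusted p = 0.00151). Cmpk1, the kinase that phosphorylates UMP and CMP, fell from 394 and 353 to 236 and 252 CPM (log2 fold change -0.61 ± 0.121 SE, edgeR adjusted p = 0.0205). Glul, Slc37a2 and Cmpk1 did not pass without WT skin replicate 1 (adjusted p = 0.0683 to 0.5 in edgeR). Glul and Cmpk1 did not pass without KO skin replicate 1 or without KO skin replicate 2 (adjusted p = 0.101 to 0.313 in edgeR). Glul did not pass without robust estimation.

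Of 24 tested glycolysis and hypoxia genes 22 were above 0 under TMM and under both other scalings (median 0.33), and 2 passed. Eno1, enolase, rose from 642 and 729.9 CPM to 1087 and 1051 CPM (log2 fold change 0.64 ± 0.101 SE, edgeR adjusted p = 0.00395), and Tpi1, triosephosphate isomerase, from 996 and 1131 CPM to 1492 and 1417 CPM (log2 fold change 0.45 ± 0.101 SE, edgeR adjusted p = 0.0395). The pyruvate kinase gene Pkm measured 2177 and 2285 CPM in WT and 2921 and 2658 CPM in KO skin (edgeR adjusted p = 0.1004). The lactate exporter gene Slc16a3 measured 202 and 226 CPM in WT and 292 and 312 CPM in KO (edgeR adjusted p = 0.112). The KO libraries of both genes were the higher ones without passing, as KO libraries were in 20.1% of all tested genes. Nampt, the rate-limiting enzyme of NAD salvage, rose from 60.9 and 72.95 to 113 and 114 CPM (log2 fold change 0.76 ± 0.176 SE, edgeR adjusted p = 0.0499). Eno1, Tpi1 and Nampt did not pass without WT skin replicate 1 or without KO skin replicate 1 (adjusted p = 0.0549 to 0.390 in edgeR). Tpi1 and Nampt did not pass without KO skin replicate 2, WT spleen replicate 1 or without WT spleen replicate 2 (adjusted p = 0.0574 to 0.231 in edgeR). Nampt did not pass with DESeq2's size factors, and Tpi1 and Nampt without robust estimation.

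Il10 and Areg fell among the suppressive and repair mediators. Il10 (chromosome 1, 131019845 to 131024974), an anti-inflammatory cytokine, measured 1452 and 926 CPM in WT skin and 324 and 329.7 CPM in KO skin (log2 fold change -1.86 ± 0.186 SE, edgeR adjusted p = 0.000767). Both KO libraries held about the same level and the WT libraries differed. Areg, the growth factor amphiregulin, measured 501 and 260.1 CPM in WT and 144 and 153 CPM in KO skin (log2 fold change -1.36 ± 0.242 SE, edgeR adjusted p = 0.0302). Il10 was at 8.19 and 9.73 CPM and Areg at 0.936 and 1.14 CPM in WT spleen, where both are scarce. Of 15 tested suppressive and repair mediators Il10 and Areg passed, none rose and 6 were above 0 (median -0.18). That median lay between -0.32 and 0.10 when single skin libraries were left out. The checkpoint receptor gene Lag3 measured 106 and 77.2 CPM in WT and 50.2 and 49.2 CPM in KO (edgeR adjusted p = 0.0647), and Nt5e, which makes adenosine, 193 and 236 CPM in WT and 318 and 258 CPM in KO (0.197). Lag3 passed by DESeq2 (adjusted p = 0.0438), by limma-voom (0.0201) and by edgeR in the skin libraries alone (0.0371). It did not pass with a replicate block or without robust estimation. Areg did not pass without WT skin replicate 1, KO skin replicate 1, KO skin replicate 2, WT spleen replicate 1, WT spleen replicate 2 or without KO spleen replicate 2 (adjusted p = 0.0531 to 0.278 in edgeR). Areg did not pass by limma-voom or in the skin libraries alone.

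Matrix and other secreted products were among the lower genes as well. F13a1, the catalytic subunit of coagulation factor XIII, fell from 56.5 and 35.2 to 7.40 and 4.83 CPM (log2 fold change -2.80 ± 0.388 SE, edgeR adjusted p = 0.00132). Nrn1, neuritin, fell from 167 and 95.7 to 43.6 and 28.7 CPM (log2 fold change -1.85 ± 0.264 SE, edgeR adjusted p = 0.00198) and was at 16.4 and 16.6 CPM in WT and 5.67 and 4.51 CPM in KO spleen (adjusted p = 0.0570 there). Col18a1, a basement membrane collagen, measured 182 and 141 CPM in WT and 56.5 and 84.2 CPM in KO, Ctla2a, a protease inhibitor of activated T cells, 294 and 224 CPM in WT and 109.9 and 89.6 CPM in KO, and Rln3, relaxin 3, 277 and 225 CPM in WT and 161 and 143 CPM in KO (edgeR adjusted p = 0.0483, 0.0171 and 0.0188). Chadl, a small leucine-rich matrix protein gene, fell from 11.6 and 8.18 to 1.32 and 0.302 CPM (log2 fold change -2.93 ± 0.603 SE, edgeR adjusted p = 0.0256). Wls, which carries Wnt proteins to the cell surface, fell from 204 and 192 to 64.2 and 82.1 CPM (log2 fold change -1.43 ± 0.221 SE, edgeR adjusted p = 0.00542). Ctla2a shares exon sequence on its strand with other gene models, and F13a1, Nrn1 and Chadl overlap models on the opposite strand. Nrn1, Col18a1, Ctla2a, Rln3, Chadl and Wls did not pass without WT skin replicate 1 (adjusted p = 0.0530 to 0.358 in edgeR). Col18a1, Ctla2a, Rln3, Chadl and Wls did not pass without KO skin replicate 1 (adjusted p = 0.109 to 0.382 in edgeR). Col18a1, Ctla2a, Rln3 and Chadl did not pass without KO skin replicate 2 (adjusted p = 0.0841 to 0.211 in edgeR). Col18a1 did not pass with upper-quartile scaling or without robust estimation, Ctla2a by DESeq2, and Chadl by limma-voom. Without KO skin replicate 1 the log2 fold change of Chadl was -3.64.

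Galectin, S100 and annexin genes were nearly all below 0 in KO skin, 14 of 16 tested (median -0.20), and 2 of them passed. The galectin gene Lgals3 fell from 693 and 603 to 253 and 241 CPM (log2 fold change -1.39 ± 0.232 SE, edgeR adjusted p = 0.0302), and Anxa1, annexin A1, from 243 and 173 to 73.5 and 107 CPM (log2 fold change -1.21 ± 0.204 SE, edgeR adjusted p = 0.00668). S100a4 measured 764 and 922 CPM in WT and 548 and 584 CPM in KO (edgeR adjusted p = 0.161) and S100a6 1033 and 1284 CPM in WT and 733 and 911 CPM in KO (0.224). Serpinb6a, an intracellular protease inhibitor, fell from 267 and 194 to 96.7 and 127 CPM (log2 fold change -1.04 ± 0.176 SE, edgeR adjusted p = 0.00668). Lgals3, Anxa1 and Serpinb6a did not pass without WT skin replicate 1 or without KO skin replicate 1 (adjusted p = 0.155 to 0.280 in edgeR). Lgals3 did not pass without KO skin replicate 2, WT spleen replicate 1 or without WT spleen replicate 2 (adjusted p = 0.0921 to 0.292 in edgeR).

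Of 14 tested chemokine receptor genes of tissue T cells 2 passed, both lower. Xcr1 (chromosome 9, 123852315 to 123862029), the receptor for XCL1, fell from 90.8 and 87.2 CPM in WT skin to 15.3 and 6.34 CPM in KO skin (log2 fold change -2.96 ± 0.416 SE, edgeR adjusted p = 0.00395). Without KO skin replicate 1 its log2 fold change was -3.70. Xcr1 also marks a class of dendritic cells. The 10 Langerhans and dendritic cell markers, Xcr1 included, summed to 226 and 272 CPM in WT and 276 and 212 CPM in KO skin (CPM of the total count). Among them Zbtb46 stood at 2.69 and 1.93 CPM in WT and 4.13 and 6.73 CPM in KO, Flt3 at 0 and 0 CPM in WT and 1.70 and 1.96 CPM in KO, and Cd74 at 24.6 and 42.04 CPM in WT and 80.2 and 56.9 CPM in KO. Each of these 3 was higher in both KO libraries, while Xcr1 was lower. Epcam, at 108 and 144 CPM in WT and 93.8 and 131 CPM in KO, was not higher. Itgax, at 3.13 and 0 CPM in WT and 0 and 1.12 CPM in KO, was not either. Of 5 tested members 3 were above 0 and 2 below 0, Xcr1 among the latter. Flt3, Zbtb46 and Itgax were at low levels, and Clec9a was at 0 in every skin library. The part of such cells in the Xcr1 result was not tested. Ccr1 fell from 89.8 and 51.6 to 28.3 and 27.2 CPM (log2 fold change -1.34 ± 0.282 SE, edgeR adjusted p = 0.0301). Ccr1 did not pass without WT skin replicate 1, KO skin replicate 1 or without KO skin replicate 2 (adjusted p = 0.194 to 0.537 in edgeR). Both genes lie on chromosome 9 with 100.1 kb between them.

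A pair of receptor genes had larger levels and did not pass. Cxcr6, a receptor that holds T cells in tissue, measured 1706 and 1462 CPM in WT skin and 370.5 and 328 CPM in KO skin, a log2 fold change of -2.18 ± 0.313 (SE) with an edgeR adjusted p of 0.0595. In the fit of the 4 skin libraries alone its adjusted p was 2.55e-09, by DESeq2 0.000842, by limma-voom 3.81e-09 and with a replicate block 0.0055. In edgeR without robust estimation it was 0.000231. Ltb4r1, the receptor for leukotriene B4, measured 705 and 371 CPM in WT and 53.1 and 23.5 CPM in KO skin (log2 fold change -3.78 ± 0.552, edgeR adjusted p = 0.0958). Its adjusted p was 0.359 in the skin libraries alone and 0.122 by limma-voom. It was 4.82e-06 by DESeq2, 3.48e-08 with a replicate block and 0.000177 in edgeR without robust estimation. The libraries of the genotypes were far apart in both genes. Whether these genes passed depended on the tool, on robust estimation, on the replicate block and on the libraries in the fit. In KO against WT spleen both were also below 0, and neither passed. The log2 fold change there was -3.46 for Cxcr6 (edgeR adjusted p = 0.0501) and -5.07 for Ltb4r1 (0.187). Ccr6 measured 83.1 and 142 CPM in WT and 221 and 248 CPM in KO skin, the KO libraries being higher (edgeR adjusted p = 0.109).

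Among the other lower genes were receptors and surface proteins. Calcrl, part of the receptors for CGRP and adrenomedullin, fell from 202 and 119 to 63.7 and 55.8 CPM (log2 fold change -1.42 ± 0.222 SE, edgeR adjusted p = 0.00426). Gpr146, an orphan receptor, fell from 119 and 102 to 56.3 and 34.4 CPM (log2 fold change -1.28 ± 0.217 SE, edgeR adjusted p = 0.00805). Mrgpra3, an itch receptor known from sensory neurons, had 60 counts over the WT skin libraries (11.1 and 5.34 CPM) and 0 over the KO skin libraries. Set against a limit of 3 counts for the KO skin group, it was at least 20.7-fold lower (edgeR adjusted p = 0.0323). Ncam1, which encodes the adhesion molecule CD56, fell from 28.4 and 30.6 to 5.28 and 8.15 CPM (log2 fold change -2.05 ± 0.472 SE, edgeR adjusted p = 0.0476), and Nkg7, a granule protein gene of cytotoxic cells, from 308 and 299 to 146 and 166 CPM (log2 fold change -0.96 ± 0.155 SE, edgeR adjusted p = 0.00461). Cd200r1, an inhibitory receptor gene, fell from 301 and 228 to 125 and 166 CPM (log2 fold change -0.87 ± 0.180 SE, edgeR adjusted p = 0.0307). Calcrl, Gpr146, Mrgpra3, Ncam1, Nkg7 and Cd200r1 did not pass without WT skin replicate 1 (adjusted p = 0.0501 to 0.424 in edgeR). Ncam1 did not pass without WT skin replicate 2 (adjusted p = 0.109 in edgeR). Calcrl, Mrgpra3, Ncam1, Nkg7 and Cd200r1 did not pass without KO skin replicate 1 (adjusted p = 0.0549 to 0.356 in edgeR). Calcrl, Gpr146, Mrgpra3 and Ncam1 did not pass without KO skin replicate 2 (adjusted p = 0.0774 to 0.179 in edgeR). Ncam1 did not pass with upper-quartile scaling, Mrgpra3 by DESeq2, and Mrgpra3, Ncam1 and Cd200r1 without robust estimation.

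Among adhesion genes Jup fell. Jup (chromosome 11, 100368958 to 100397763) encodes plakoglobin, a catenin of desmosomes and adherens junctions. It fell from 87.6 and 49.5 CPM in WT skin to 5.55 and 4.53 CPM in KO skin (log2 fold change -3.63 ± 0.360 SE, edgeR adjusted p = 0.000115), the smallest adjusted p of the comparison together with Ccr7. It was the 1 of 10 tested catenin, cadherin and epithelial adhesion genes to pass (median -0.18). The 10 keratinocyte genes summed to 30.7 and 25.7 CPM (of the total count, as for all marker sums) in WT skin. In KO skin they summed to 12.9 and 15.7 CPM. Perp, the largest of them, stood at 22.4 and 16.05 CPM in WT and 5.59 and 11.5 CPM in KO. Krt14 stood at 1.57 and 1.28 CPM in WT and 0 and 0 CPM in KO. Krt10 went the other way, from 0 and 0 CPM in WT to 1.21 and 1.12 CPM in KO. Krt1 and Krtdap were at 0 in every skin library. The part of keratinocyte RNA in the Jup result was not tested.

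Of 18 tested integrin genes 1 fell and 1 rose (median -0.12). Itga1, the collagen-binding alpha 1 chain, fell from 32.3 and 11.7 to 2.64 and 3.62 CPM (log2 fold change -2.64 ± 0.548 SE, edgeR adjusted p = 0.0302) and went from 4.68 and 9.16 CPM in WT spleen to 0 and 0 CPM in KO spleen. Itga7, the laminin-binding alpha 7 chain, rose from 6.91 and 7.83 to 38.8 and 28.4 CPM (log2 fold change 2.12 ± 0.334 SE, edgeR adjusted p = 0.00395). Its exons overlap Mettl7b on the opposite strand, and the strand setting of the counting is not given in the sources used here. Itgal, the alpha chain of LFA-1, measured 552 and 458 CPM in WT and 583 and 595 CPM in KO (edgeR adjusted p = 0.475). Itga1 and Itga7 did not pass without WT skin replicate 1 or without KO skin replicate 1 (adjusted p = 0.0691 to 0.501 in edgeR). Itga1 did not pass without KO skin replicate 2 (adjusted p = 0.169 in edgeR). Itga1 did not pass without robust estimation. Without WT skin replicate 1 the log2 fold change of Itga1 was -1.75.

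Tcf7, Ccr7, Cd96 and Izumo1r rose from a low level in WT skin. Tcf7 (chromosome 11, 52252371 to 52283014), which encodes the resting T cell factor TCF1, rose from 4.93 and 11.03 CPM to 34.1 and 31.98 CPM (log2 fold change 2.05 ± 0.235 SE, edgeR adjusted p = 0.000340). Ccr7 (chromosome 11, 99144196 to 99155077), the receptor that leads T cells into lymph nodes, rose from 35.02 and 43.1 to 106 and 88.4 CPM (log2 fold change 1.32 ± 0.135 SE, edgeR adjusted p = 0.000115). Cd96, an adhesion and checkpoint receptor, rose from 25.4 and 27.8 to 69.8 and 66.4 CPM (log2 fold change 1.34 ± 0.147 SE, edgeR adjusted p = 0.000153). Izumo1r, the folate receptor family gene also known as Fr4, rose from 41.2 and 35.2 to 103 and 84.5 CPM (log2 fold change 1.28 ± 0.161 SE, edgeR adjusted p = 0.000632) and was the 1 of 20 Treg identity genes to pass. For comparison, WT spleen held 279.6 and 303 CPM of Tcf7, 665 and 751 CPM of Ccr7, 253 and 247 CPM of Cd96 and 496 and 496 CPM of Izumo1r. In each of these 4 genes KO skin stayed below every spleen library.

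**Figure D3:**
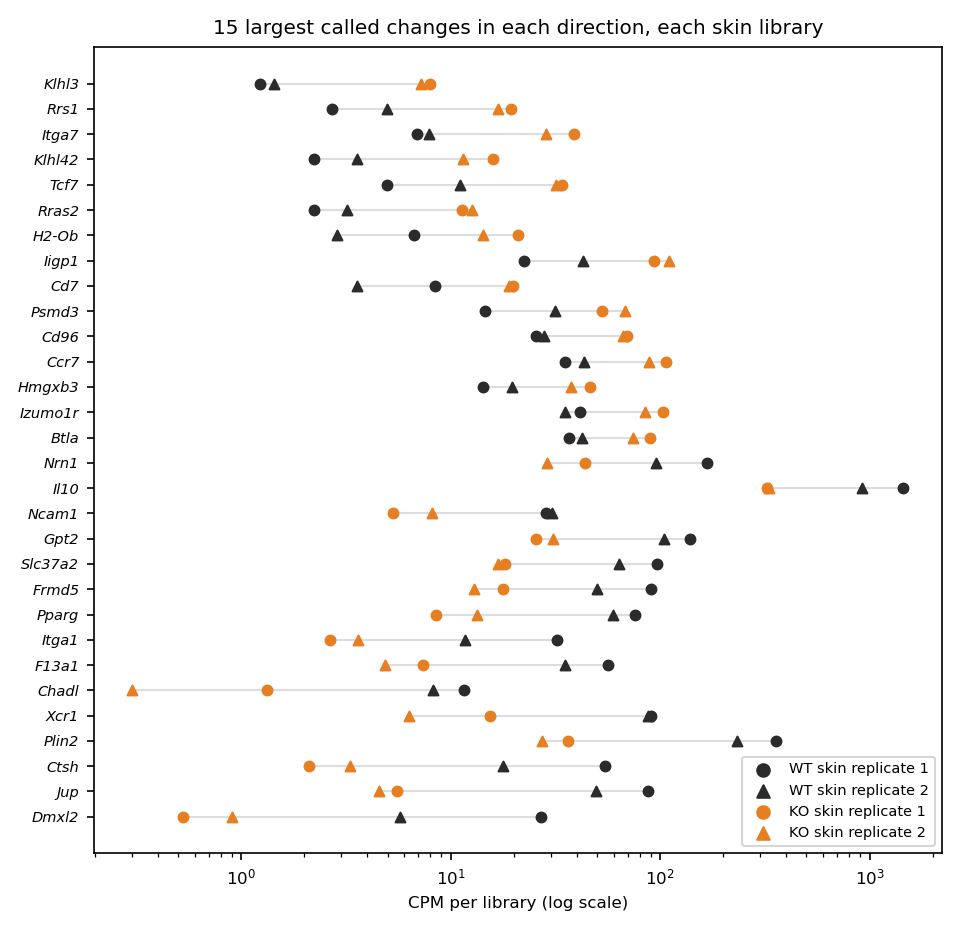
CPM (log10 axis) in each skin library for the genes with the largest changes among the called genes with full values, WT skin in black and KO skin in orange. The rule for full values required both KO libraries to lie on the same side of both WT libraries, so every gene drawn has that split. In Plin2, Jup and Il10 the WT libraries differ more from each other than the KO libraries do.

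The surface receptor genes Btla, Cd7 and Dpp4 rose as well. Btla, an inhibitory receptor, rose from 36.5 and 42.3 to 89.8 and 73.9 CPM (log2 fold change 1.05 ± 0.162 SE, edgeR adjusted p = 0.00391). Cd7 rose from 8.39 and 3.56 to 19.8 and 19 CPM (log2 fold change 1.56 ± 0.323 SE, edgeR adjusted p = 0.0264), and Dpp4, which encodes CD26, from 27.6 and 34.2 to 68.4 and 45.3 CPM (log2 fold change 0.88 ± 0.195 SE, edgeR adjusted p = 0.0378). With Cd96 and Cd200r1, 4 of 22 tested checkpoint and costimulatory receptors passed, 3 of them higher (median 0.020). Of 21 lymphoid homing and resting surface genes Ccr7 passed and 15 were above 0 (median 0.16). S1pr1, the receptor for egress from tissue, measured 107 and 93.2 CPM in WT and 146 and 132 CPM in KO skin (edgeR adjusted p = 0.0925). Btla and Dpp4 did not pass without WT skin replicate 1 (adjusted p = 0.0683 to 0.361 in edgeR). Cd7 did not pass without WT skin replicate 2 or without KO skin replicate 2 (adjusted p = 0.0975 to 0.105 in edgeR). Btla, Cd7 and Dpp4 did not pass without KO skin replicate 1 (adjusted p = 0.0757 to 0.436 in edgeR). Dpp4 did not pass without WT spleen replicate 1 or without WT spleen replicate 2 (adjusted p = 0.0586 to 0.0592 in edgeR). Cd7 and Dpp4 did not pass by limma-voom or in the skin libraries alone, and Dpp4 without robust estimation. Without WT skin replicate 1 the log2 fold change of Cd7 was 2.28.

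A set of neighbouring genes on chromosome 19 rose. The tetraspanning membrane protein genes Ms4a4b and Ms4a6b and the gene models BE692007 and Gm8369 lie near each other, with 1.36 to 49.5 kb between any 2 of them. Over the interval they span, 6 genes were tested and these 4 passed. Ms4a6c measured 2.71 and 1.07 CPM in WT and 4.49 and 6.94 CPM in KO skin (edgeR adjusted p = 0.327), and Gm19261 was at 0 in every skin library. Outside it, Ms4a4c measured 3.21 and 8.54 CPM in WT and 5.81 and 5.13 CPM in KO (edgeR adjusted p = 0.9994), and Ms4a6d 0.987 and 0.356 CPM in WT and 4.49 and 3.02 CPM in KO (0.310). Ms4a4b measured 283 and 298 CPM in WT and 568 and 382 CPM in KO skin (log2 fold change 0.71 ± 0.142 SE, edgeR adjusted p = 0.0367), and Ms4a6b 303 and 316 CPM in WT and 514 and 431 CPM in KO (log2 fold change 0.61 ± 0.101 SE, edgeR adjusted p = 0.00605). Gm8369 measured 15.3 and 18.5 CPM in WT and 51 and 50.4 CPM in KO (log2 fold change 1.57 ± 0.195 SE, edgeR adjusted p = 0.000597), and the non-coding transcript BE692007 6.66 and 5.69 CPM in WT and 17.97 and 25.3 CPM in KO (log2 fold change 1.71 ± 0.266 SE, edgeR adjusted p = 0.00391). BE692007 overlaps Ms4a6c on the opposite strand, and near-identical copies in this family can share reads, so the split between its genes is uncertain. Ms4a4b and Ms4a6b did not pass without WT skin replicate 1 or without KO skin replicate 1 (adjusted p = 0.0684 to 0.282 in edgeR). Ms4a4b did not pass without WT skin replicate 2, WT spleen replicate 1 or without WT spleen replicate 2 (adjusted p = 0.0757 to 0.0849 in edgeR). Ms4a4b did not pass in the skin libraries alone.

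Other higher genes are put together here after their calls were seen and form no fixed list. Rras2, a small GTPase of the Ras family, rose from 2.22 and 3.20 to 11.4 and 12.7 CPM (log2 fold change 1.98 ± 0.346 SE, edgeR adjusted p = 0.00841). The Kelch family genes Klhl3, an adaptor of a ubiquitin ligase, and Klhl42 rose from 1.23 and 1.42 to 7.93 and 7.24 CPM and from 2.22 and 3.56 to 15.9 and 11.5 CPM (log2 fold changes 2.13 ± 0.434 and 2.09 ± 0.394, SE). Klhl6, of the same family and known from B cells, measured 215 and 191 CPM in WT and 296 and 288 CPM in KO, Limd2 223 and 317 CPM in WT and 449 and 450.1 CPM in KO, and Itm2a 42.9 and 28.5 CPM in WT and 63.4 and 65.8 CPM in KO. Ipcef1, Tmem71, Gramd3 and the deubiquitinase gene Usp28 rose by 0.80, 0.64, 0.83 and 0.81 on the log2 scale. Hmgxb3 rose from 14.3 and 19.6 to 46.2 and 37.7 CPM (log2 fold change 1.30 ± 0.266 SE, edgeR adjusted p = 0.0252), and its exons overlap Csf1r on the opposite strand. The non-coding models Gm39323 and Gm45552 rose by 1.10 and 1.25. Gm16152 had 1 count over the WT and 27 over the KO skin libraries, a ratio of 26.1 with a 95% counting interval of 4.30 to 1069. Rras2, Klhl3, Klhl42, Klhl6, Limd2, Ipcef1, Tmem71, Gramd3, Usp28, Hmgxb3, Gm39323, Gm45552 and Gm16152 did not pass without WT skin replicate 1 (adjusted p = 0.0679 to 0.289 in edgeR). Klhl3, Klhl6, Itm2a, Gramd3, Usp28, Gm39323 and Gm16152 did not pass without WT skin replicate 2 (adjusted p = 0.0525 to 0.179 in edgeR). Klhl3, Klhl42, Klhl6, Limd2, Itm2a, Ipcef1, Tmem71, Gramd3, Usp28, Hmgxb3, Gm39323, Gm45552 and Gm16152 did not pass without KO skin replicate 1 (adjusted p = 0.0791 to 0.320 in edgeR). Rras2, Klhl3, Klhl6, Limd2, Itm2a, Ipcef1, Tmem71, Usp28, Hmgxb3, Gm39323 and Gm45552 did not pass without KO skin replicate 2 (adjusted p = 0.0503 to 0.234 in edgeR). Itm2a and Gm39323 did not pass without WT spleen replicate 1 or without WT spleen replicate 2 (adjusted p = 0.0574 to 0.0606 in edgeR). Gm16152 did not pass by DESeq2, Rras2, Klhl3, Klhl42, Itm2a, Usp28, Gm39323, Gm45552 and Gm16152 by limma-voom, Rras2, Klhl3, Klhl6, Itm2a, Ipcef1, Usp28, Gm39323, Gm45552 and Gm16152 in the skin libraries alone, Itm2a with a replicate block, and Klhl6, Itm2a, Usp28, Gm39323 and Gm16152 without robust estimation. Without KO skin replicate 1 the log2 fold change of Gm16152 was 1.96.

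Of 23 tested transcription factors of tissue effector Tregs, 2 fell and 1 rose (median -0.13). Gata3, a factor of type 2 and tissue Tregs, fell from 1395 and 991 to 737 and 827 CPM (log2 fold change -0.61 ± 0.130 SE, edgeR adjusted p = 0.0357), and Zbtb32 from 87.8 and 72.95 to 40.4 and 36.8 CPM (log2 fold change -1.05 ± 0.214 SE, edgeR adjusted p = 0.0248). Zbtb32 was also lower in KO spleen, with 63.7 and 91.01 CPM in WT and 36.4 and 31.1 CPM in KO (edgeR adjusted p = 0.0246). Bhlhe40, a repressor of activated T cells, rose from 202 and 235 to 378 and 322 CPM (log2 fold change 0.68 ± 0.144 SE, edgeR adjusted p = 0.0302). Gata3 and Bhlhe40 overlap other gene models, so part of their reads may be from those. Gata3, Zbtb32 and Bhlhe40 did not pass without WT skin replicate 1, KO skin replicate 1 or without KO skin replicate 2 (adjusted p = 0.0768 to 0.4 in edgeR). Gata3 did not pass in the skin libraries alone, and Gata3 and Bhlhe40 without robust estimation.

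Of 15 resting state transcription factors 13 were above 0 under TMM and under both other scalings (median 0.25). Tcf7 rose and Klf7 fell, from 84.1 and 61.9 to 35.1 and 26.8 CPM (log2 fold change -1.22 ± 0.232 SE, edgeR adjusted p = 0.0162). Klf3 measured 49.3 and 48.04 CPM in WT and 76.9 and 64.6 CPM in KO skin (edgeR adjusted p = 0.0730) and Id3 19.98 and 14.9 CPM in WT and 36.2 and 21.7 CPM in KO (0.179). The TGF-beta-induced factor gene Klf10 fell from 183 and 169 to 108 and 88.4 CPM (log2 fold change -0.84 ± 0.144 SE, edgeR adjusted p = 0.00691), Ets2 from 189 and 207 to 111 and 132 CPM (log2 fold change -0.71 ± 0.158 SE, edgeR adjusted p = 0.0395), and Zbtb38, a reader of methylated DNA, from 382 and 352 to 170.2 and 223 CPM (log2 fold change -0.90 ± 0.140 SE, edgeR adjusted p = 0.00391). Klf7, Klf10 and Ets2 did not pass without WT skin replicate 1 or without KO skin replicate 2 (adjusted p = 0.0875 to 0.213 in edgeR). Ets2 did not pass without WT skin replicate 2 or without WT spleen replicate 1 (adjusted p = 0.0501 to 0.116 in edgeR). Klf7, Ets2 and Zbtb38 did not pass without KO skin replicate 1 (adjusted p = 0.0702 to 0.375 in edgeR). Ets2 did not pass with upper-quartile scaling or without robust estimation.

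Of the early response and stress genes, Atf3, Jun, Nfkbia, Ppp1r15a, Socs3 and Zfp36 fell in KO skin. Atf3, a stress-induced factor, fell from 105 and 105 to 30.7 and 29.9 CPM (log2 fold change -1.78 ± 0.289 SE, edgeR adjusted p = 0.00519), with both libraries of a genotype close to each other. Jun fell from 146 and 80.8 to 48.6 and 59.7 CPM (log2 fold change -1.06 ± 0.243 SE, edgeR adjusted p = 0.0474). Fos measured 835 and 650.1 CPM in WT and 534 and 341 CPM in KO (edgeR adjusted p = 0.08998, and 0.00382 with a replicate block). Nfkbia, which holds NF-kB in the cytoplasm, fell from 4433 and 4502 to 3036 and 3137 CPM (log2 fold change -0.53 ± 0.110 SE, edgeR adjusted p = 0.0302). Ppp1r15a, which relieves the stress block on translation, fell from 1154 and 935 to 753 and 668 CPM (log2 fold change -0.56 ± 0.123 SE, edgeR adjusted p = 0.0378), Socs3, an inhibitor of cytokine signalling, from 116 and 92.2 to 58.1 and 44.3 CPM (log2 fold change -1.02 ± 0.187 SE, edgeR adjusted p = 0.0127), and Zfp36, which destabilises cytokine mRNA, from 209 and 193 to 137 and 95.9 CPM (log2 fold change -0.78 ± 0.168 SE, edgeR adjusted p = 0.0344). Atf3, Jun, Nfkbia, Ppp1r15a, Socs3 and Zfp36 did not pass without WT skin replicate 1 or without KO skin replicate 2 (adjusted p = 0.0776 to 0.602 in edgeR). Nfkbia did not pass without WT skin replicate 2 (adjusted p = 0.0640 in edgeR). Atf3, Jun, Nfkbia and Ppp1r15a did not pass without KO skin replicate 1 (adjusted p = 0.111 to 0.375 in edgeR). Jun did not pass without WT spleen replicate 1 or without WT spleen replicate 2 (adjusted p = 0.0536 to 0.0541 in edgeR). Jun did not pass with upper-quartile scaling, in the skin libraries alone or with a replicate block, and Jun, Ppp1r15a and Zfp36 without robust estimation.

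These 6 called genes all belong to a list of 31 tested genes that respond to tissue dissociation and handling, of which 28 were below 0 (median -0.41). The median stayed between -0.41 and -0.38 under the other scalings and between -0.51 and -0.37 without single skin libraries. That median had the same sign as the changes of Il10, Areg and Gata3, and the part of handling in those results was not tested. Among 18 immediate early factors 13 were below 0 (median -0.25), and 10 of 12 MAPK phosphatase and Sprouty genes (median -0.33), 13 of 15 cell cycle inhibitor, BTG and GADD45 genes (median -0.21), 12 of 18 NF-kB genes (median -0.18) and 10 of 15 heat shock genes (median -0.11) were. In the phosphatase, cell cycle inhibitor and heat shock lists none passed in edgeR's fit of all 8 libraries at a minimum count of 10. Dusp6 measured 134 and 92.5 CPM in WT and 72.9 and 66.1 CPM in KO (edgeR adjusted p = 0.112), Gadd45b 1081 and 1179 CPM in WT and 931 and 770.5 CPM in KO (0.109), Nfkb1 607 and 437 CPM in WT and 356 and 284 CPM in KO (0.0858, and 0.0038 with a replicate block) and Hspa1a 845 and 625 CPM in WT and 444 and 500.2 CPM in KO (0.0575). Hspa1a passed by DESeq2 (adjusted p = 0.012), by limma-voom (0.00551) and by edgeR in the skin libraries alone (0.0298). It did not pass with a replicate block or without robust estimation.

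**Figure D4:**
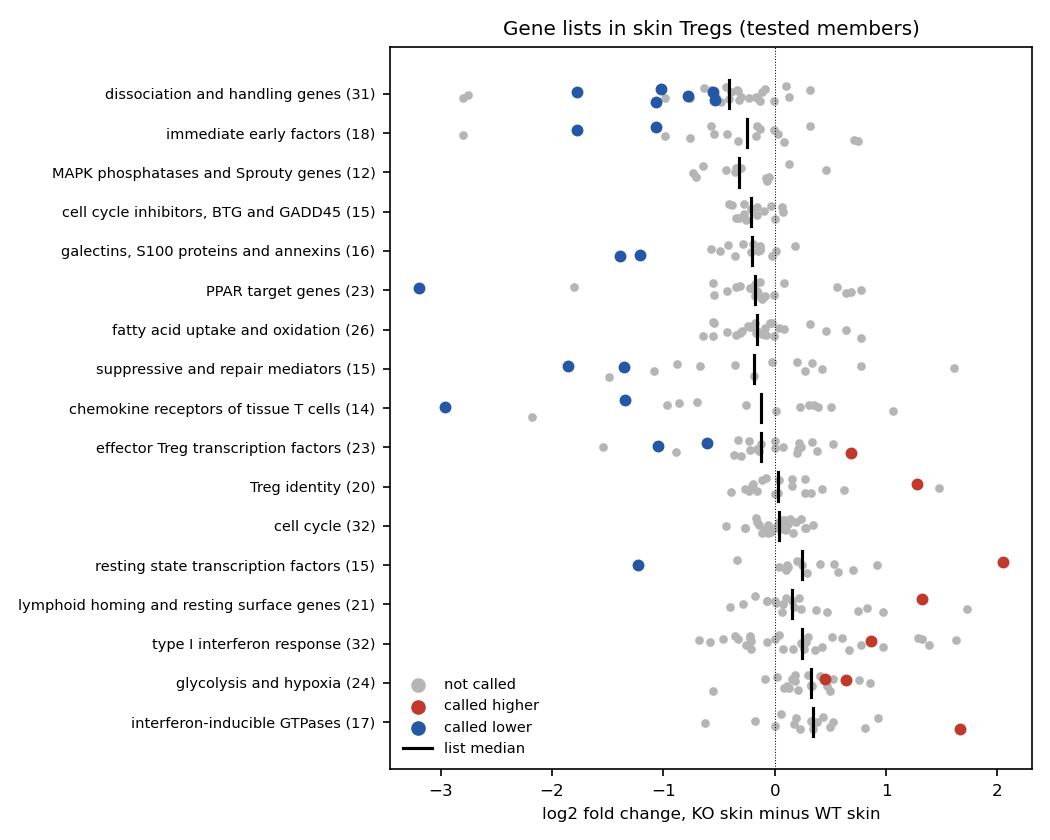
Log2 fold change of KO skin against WT skin (horizontal axis) for each tested member of 17 gene lists (rows, number tested in brackets), with called members in colour and the list median as a bar. The dissociation and handling genes have the lowest median drawn (-0.41), and the glycolysis and interferon-inducible GTPase lists the highest (0.33 and 0.34).

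Some genes of T cell signalling and activation also fell. Ubash3b, a phosphatase that dampens the T cell receptor, fell from 439 and 391 to 246 and 257 CPM (log2 fold change -0.72 ± 0.122 SE, edgeR adjusted p = 0.00654) and was the 1 of 29 tested T cell receptor signalling genes to pass (median 0.16). The kinase gene Lck measured 1187 and 1118 CPM in WT and 1399.7 and 1515 CPM in KO (edgeR adjusted p = 0.101). Gem, a small GTPase of activated cells, fell from 678 and 512 to 335 and 342 CPM (log2 fold change -0.81 ± 0.155 SE, edgeR adjusted p = 0.0195), and Samsn1, an adaptor of activated lymphocytes, from 1316 and 1423 to 787 and 1048 CPM (log2 fold change -0.58 ± 0.118 SE, edgeR adjusted p = 0.0254). Sesn1, a sestrin that restrains mTORC1, fell from 235 and 200.3 to 111 and 139.7 CPM (log2 fold change -0.79 ± 0.128 SE, edgeR adjusted p = 0.00453). Ubash3b, Gem, Samsn1 and Sesn1 did not pass without WT skin replicate 1 or without KO skin replicate 1 (adjusted p = 0.0679 to 0.290 in edgeR). Samsn1 did not pass without WT skin replicate 2 (adjusted p = 0.0756 in edgeR). Gem did not pass without KO skin replicate 2 (adjusted p = 0.148 in edgeR). Samsn1 did not pass without robust estimation.

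Among the other lower genes were some whose products belong to the cytoskeleton, grouped here after their calls were seen. The actin-binding gene Tagln2 fell from 2488 and 2286 to 1805 and 1489 CPM (log2 fold change -0.54 ± 0.106 SE, edgeR adjusted p = 0.0209), Ahnak, a giant scaffold protein, from 2234 and 2198 to 1567 and 1669 CPM (log2 fold change -0.45 ± 0.0971 SE, edgeR adjusted p = 0.0324), and plectin, Plec, from 785 and 793 to 574 and 574 CPM (log2 fold change -0.46 ± 0.0957 SE, edgeR adjusted p = 0.0287). The calcium-dependent protease gene Capn2 measured 831 and 765 CPM in WT and 552 and 602 CPM in KO, gelsolin, Gsn, 313 and 236 CPM in WT and 164 and 130.3 CPM in KO, and the tubulin gene Tubb6 163 and 147 CPM in WT and 69.8 and 83.3 CPM in KO. Phactr2, a regulator of actin and phosphatase 1, and Clic4 fell by 1.14 and 1.11 on the log2 scale. Tagln2, Ahnak, Plec, Capn2, Gsn, Tubb6, Phactr2 and Clic4 did not pass without WT skin replicate 1 or without KO skin replicate 2 (adjusted p = 0.0574 to 0.281 in edgeR). Ahnak, Plec, Phactr2 and Clic4 did not pass without WT skin replicate 2 (adjusted p = 0.0548 to 0.127 in edgeR). Ahnak, Plec, Capn2, Tubb6, Phactr2 and Clic4 did not pass without KO skin replicate 1 (adjusted p = 0.188 to 0.290 in edgeR). Phactr2 did not pass without WT spleen replicate 1 or without WT spleen replicate 2 (adjusted p = 0.0573 to 0.0609 in edgeR). Phactr2 did not pass with upper-quartile scaling, Plec and Capn2 in the skin libraries alone, and Ahnak, Plec, Capn2 and Phactr2 without robust estimation.

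Of 33 tested lysosome genes 25 were below 0 (median -0.12), with 1 called lower and 1 called higher. Cathepsin H, Ctsh, fell from 54.5 and 17.8 to 2.11 and 3.32 CPM (log2 fold change -3.52 ± 0.703 SE, edgeR adjusted p = 0.0387), and cathepsin S, Ctss, rose from 146 and 139 to 191 and 259 CPM (log2 fold change 0.66 ± 0.147 SE, edgeR adjusted p = 0.0409). Ctss is also a myeloid gene. The 13 myeloid genes summed to 148.4 and 133 CPM in WT skin and 187 and 259 CPM in KO skin. Ctss made up most of these sums. Of 7 tested myeloid genes 3 were above 0 and 2 below 0. Csf1r stood at 0.224 and 0.321 CPM of the total count in WT and 3.16 and 1.68 CPM in KO. Cd68 stood at 7.39 and 2.25 CPM of the total count in WT and 1.94 and 2.80 CPM in KO. C1qa, C1qb and Fcgr1 were at 0 in every skin library. The part of myeloid RNA in the Ctss result was not tested. Dmxl2, a V-ATPase assembly factor, fell from 26.9 and 5.69 to 0.528 and 0.905 CPM (log2 fold change -3.77 ± 0.702 SE, edgeR adjusted p = 0.0138), and WT skin replicate 1 set its WT level. The lysosomal channel gene Tmem175 fell from 53.3 and 72.2 to 31.2 and 31.1 CPM, the ESCRT gene Vps37b from 155 and 149 to 101 and 80.8 CPM, and Cmtm6, which keeps PD-L1 at the surface, from 631 and 627 to 410.4 and 481 CPM. Ctsh, Ctss, Dmxl2, Vps37b and Cmtm6 did not pass without WT skin replicate 1 (adjusted p = 0.199 to 0.583 in edgeR). Ctss, Tmem175, Vps37b and Cmtm6 did not pass without WT skin replicate 2 (adjusted p = 0.0598 to 0.158 in edgeR). Ctsh, Dmxl2, Tmem175, Vps37b and Cmtm6 did not pass without KO skin replicate 1 (adjusted p = 0.113 to 0.382 in edgeR). Ctsh, Ctss, Dmxl2, Tmem175, Vps37b and Cmtm6 did not pass without KO skin replicate 2 (adjusted p = 0.0574 to 0.392 in edgeR). Cmtm6 did not pass without WT spleen replicate 2 (adjusted p = 0.05 in edgeR). Vps37b and Cmtm6 did not pass with upper-quartile scaling, Ctsh by DESeq2, Ctsh and Dmxl2 by limma-voom, Cmtm6 in the skin libraries alone, and Ctss, Vps37b and Cmtm6 without robust estimation. With WT skin replicate 1 left out, Dmxl2 changed by -2.31 and Ctsh by -2.50 on the log2 scale, and with WT skin replicate 2 left out Dmxl2 changed by -4.48.

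Further lower genes had roles outside these groups. Tmem109, a membrane protein gene, fell from 326 and 327 to 152 and 178 CPM (log2 fold change -0.98 ± 0.133 SE, edgeR adjusted p = 0.00104) and kept its call without each skin library. Dennd6a, a Rab activator, fell from 24.9 and 16.01 to 7.13 and 5.43 CPM (log2 fold change -1.63 ± 0.357 SE, edgeR adjusted p = 0.0371). The histone-binding gene Rbbp7, the RNA polymerase I factor gene Taf1d, the ubiquitin ligase gene Wsb1 and the tetraspanin gene Tspan13 fell by 0.46, 0.87, 0.59 and 0.95 on the log2 scale. Mapkbp1, Efcab14, 1500009L16Rik and the non-coding Gm28875 fell by 1.25, 0.98, 1.65 and 0.91. Taf1d hosts small RNA genes on its own strand. The pseudogene Btnl5-ps had 55 counts over the WT skin libraries and 0 over the KO skin libraries, at least 19.0-fold lower against the same limit of 3 counts (edgeR adjusted p = 0.00994). Dennd6a, Rbbp7, Taf1d, Wsb1, Tspan13, Mapkbp1, Efcab14, 1500009L16Rik, Gm28875 and Btnl5-ps did not pass without WT skin replicate 1 or without KO skin replicate 2 (adjusted p = 0.0738 to 0.448 in edgeR). Rbbp7 and Gm28875 did not pass without WT skin replicate 2 (adjusted p = 0.139 to 0.146 in edgeR). Dennd6a, Rbbp7, Taf1d, Wsb1, Tspan13, Mapkbp1, 1500009L16Rik, Gm28875 and Btnl5-ps did not pass without KO skin replicate 1 (adjusted p = 0.0725 to 0.354 in edgeR). Rbbp7 did not pass without WT spleen replicate 1 or without WT spleen replicate 2 (adjusted p = 0.0592 to 0.0615 in edgeR). Rbbp7 did not pass with upper-quartile scaling, Dennd6a by limma-voom, Dennd6a and Rbbp7 in the skin libraries alone, and Dennd6a, Rbbp7, Wsb1, Mapkbp1 and Gm28875 without robust estimation.

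Iigp1 and Ifi27l2a rose among the interferon genes. Iigp1, an interferon-inducible GTPase, rose from 22.4 and 42.7 to 93.5 and 111 CPM (log2 fold change 1.66 ± 0.294 SE, edgeR adjusted p = 0.0257) and also rose in spleen, from 47.97 and 49.8 to 123 and 203 CPM (edgeR adjusted p = 0.0289). Of 17 tested interferon-inducible GTPases 15 were above 0 (14 under 1 of the other scalings, median 0.34), and Iigp1 was the member that passed. Gbp3 measured 104 and 107 CPM in WT and 155 and 142 CPM in KO (edgeR adjusted p = 0.168) and Irgm1 82.1 and 97.1 CPM in WT and 120.2 and 122 CPM in KO (0.274). Ifi27l2a rose from 99.4 and 123 to 180.5 and 223 CPM (log2 fold change 0.86 ± 0.164 SE, edgeR adjusted p = 0.0201), as 1 of 32 tested type I interferon response genes, of which 21 were above 0 (median 0.24). Iigp1 and Ifi27l2a did not pass without WT skin replicate 1 or without KO skin replicate 2 (adjusted p = 0.0940 to 0.222 in edgeR). Iigp1 did not pass without KO skin replicate 1, WT spleen replicate 1 or without WT spleen replicate 2 (adjusted p = 0.0998 to 0.155 in edgeR).

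H2-Ob rose among the MHC class II genes. H2-Ob, a subunit of the MHC class II modulator H2-O, rose from 6.66 and 2.85 to 20.9 and 14.2 CPM (log2 fold change 1.71 ± 0.338 SE, edgeR adjusted p = 0.0205), and 6 of 7 tested MHC class II genes were above 0 (median 1.02). The invariant chain gene Cd74 measured 27.1 and 46.6 CPM in WT and 87.2 and 61.2 CPM in KO (edgeR adjusted p = 0.112). H2-Aa was at 38.1 CPM of the total count in KO skin replicate 1 and at most 2.24 CPM in the other skin libraries. Without single skin libraries the list's median ranged from 0.11 to 1.34. The 10 B cell genes summed to 631 and 522 CPM in WT and 798 and 736 CPM in KO skin, nearly all of it Ighm, with Ms4a1, Pax5 and Cd22 at 0 in all skin libraries. H2-Ob did not pass without WT skin replicate 2 or without KO skin replicate 1 (adjusted p = 0.0762 to 0.235 in edgeR). H2-Ob did not pass by limma-voom or in the skin libraries alone. Without WT skin replicate 1 the log2 fold change of H2-Ob was 2.42.

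Rrs1, Psmd3, Vars and Iws1, of ribosome assembly, protein breakdown, translation and transcription, rose. Rrs1, a ribosome assembly factor, rose from 2.71 and 4.98 to 19.3 and 16.9 CPM (log2 fold change 2.13 ± 0.404 SE, edgeR adjusted p = 0.0162), as the 1 of 37 tested ribosome biogenesis genes to pass (median 0.028). Psmd3, a subunit of the proteasome lid, rose from 14.6 and 31.3 to 52.6 and 67.6 CPM (log2 fold change 1.41 ± 0.294 SE, edgeR adjusted p = 0.0474), as the 1 of 41 tested proteasome genes to pass (median 0.072). Vars, valyl-tRNA synthetase, rose from 72.8 and 108 to 150.3 and 191 CPM (log2 fold change 0.92 ± 0.179 SE, edgeR adjusted p = 0.0205), and Iws1, a factor of transcription elongation, from 39.5 and 60.1 to 89.6 and 97.4 CPM (log2 fold change 0.91 ± 0.210 SE, edgeR adjusted p = 0.0492). Members that did not pass included the nucleolar genes Mrto4 and Npm1 and the proteasome activator gene Psme1. Mrto4 measured 11.8 and 17.8 CPM in WT and 24.3 and 27.5 CPM in KO (edgeR adjusted p = 0.301), Npm1 372 and 350.2 CPM in WT and 483 and 367 CPM in KO (0.533), and Psme1 292 and 303 CPM in WT and 372 and 359 CPM in KO (0.278). Of 32 tested cell cycle genes none passed in edgeR and 20 were above 0 (median 0.041). Rrs1, Psmd3, Vars and Iws1 did not pass without WT skin replicate 1 or without KO skin replicate 2 (adjusted p = 0.0533 to 0.448 in edgeR). Rrs1, Psmd3 and Iws1 did not pass without KO skin replicate 1 (adjusted p = 0.130 to 0.194 in edgeR). Psmd3 and Iws1 did not pass without WT spleen replicate 1 or without WT spleen replicate 2 (adjusted p = 0.0675 to 0.0953 in edgeR). Psmd3 and Iws1 did not pass with DESeq2's size factors, Psmd3 in the skin libraries alone, and Iws1 with a replicate block or without robust estimation. Without WT skin replicate 2 the log2 fold change of Psmd3 was 2.00.

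Whether an effect was particular to skin was tested as the difference of the genotype effects, skin minus spleen, in the same model. Of all tested genes 12 passed (0.0967%), 9 of them among the 111 skin calls. Vars, Rrs1, Psmd3 and Tpi1 had effects of opposite sign. Vars went from 183 and 170.0 CPM in WT spleen to 86.3 and 73.1 CPM in KO spleen, a difference between tissues of 2.06 ± 0.253 on the log2 scale (edgeR adjusted p = 0.00446). Psmd3 went from 190.0 and 175 to 60.7 and 42.2 CPM in spleen (difference 3.23 ± 0.397, edgeR adjusted p = 0.0114), Rrs1 from 46.1 and 36.3 to 19.7 and 9.49 CPM (3.61 ± 0.530, 0.0114) and Tpi1 from 167 and 169 to 132 and 116 CPM (0.89 ± 0.146, 0.0202). The KO libraries of these 4 genes were thus the high ones in skin and the low ones in spleen.

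The other 5 were Tcf7, Cd96, Jup, Calcrl and Sesn1. Tcf7 measured 349 and 327 CPM in KO spleen (difference 1.83 ± 0.284, edgeR adjusted p = 0.0202) and Cd96 264 and 294 CPM (1.18 ± 0.192, 0.0202). Jup went from 12.4 and 10.3 to 5.13 and 8.54 CPM in spleen (difference -2.95 ± 0.518, 0.0257), Calcrl from 28.8 and 29.2 to 35.1 and 45.3 CPM (-1.89 ± 0.326, 0.0257) and Sesn1 from 491 and 537 to 609 and 598 CPM (-1.03 ± 0.176, 0.0257). In Calcrl and Sesn1 both KO libraries lay below WT in skin and above WT in spleen. The difference for Vars passed in 17 of 17 alternative settings, Rrs1 in 15, Psmd3 in 14, Tcf7 in 12, Cd96 and Sesn1 in 11, Calcrl and Tpi1 in 9 and Jup in 8.

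**Figure D5:**
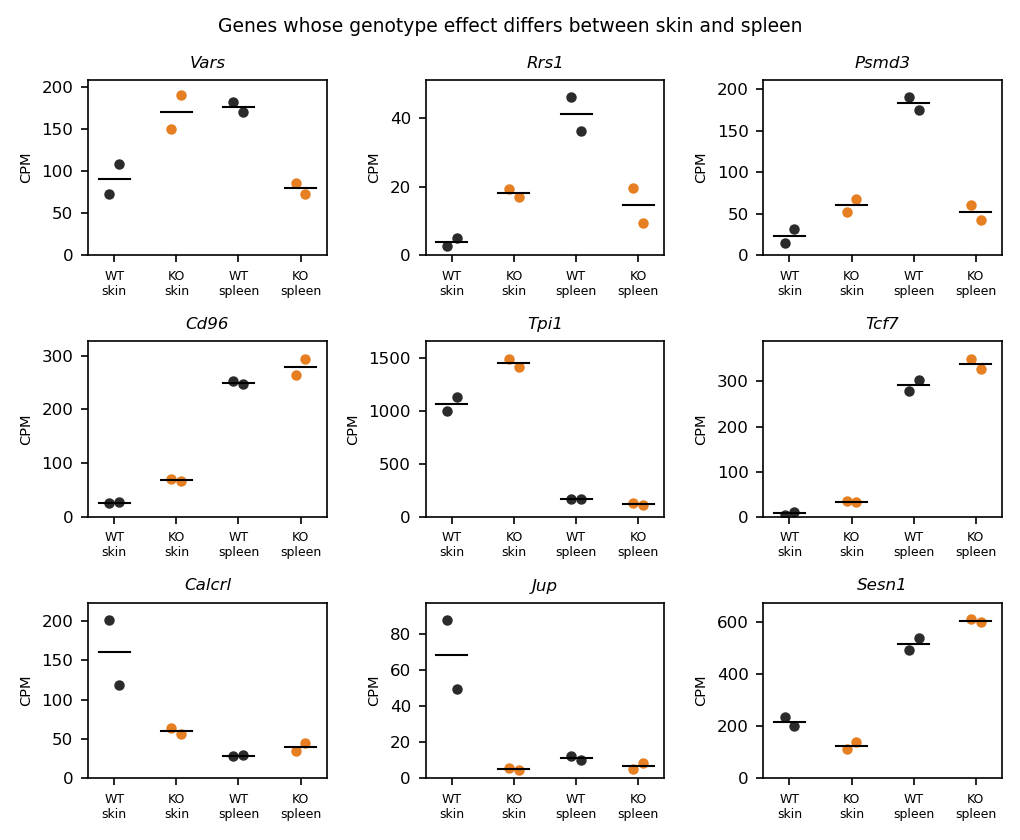
CPM (vertical axes, linear from 0) in each of the 8 libraries for the 9 skin calls whose genotype effect differed between skin and spleen, WT in black and KO in orange, with the mean of each group as a bar. In Vars, Rrs1, Psmd3 and Tpi1 the KO libraries are above WT in skin and below WT in spleen.

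Several called genes lie close to each other. Besides the Ms4a genes and the pair Xcr1 and Ccr1, Nrn1 and F13a1 lie 132 kb apart on chromosome 13 and were both lower, and Psmd3 and Ccr7 lie 448 kb apart on chromosome 11 and were both higher. Cd200r1, lower, and Btla, higher, lie 429 kb apart on chromosome 16, so neighbouring immune receptor genes also moved in opposite directions. In all, exons of 6 called genes overlap another gene on the same strand and those of 33 on the opposite strand in GENCODE M21.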

How the data were processed

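Each library came from 1000 double-sorted cells, with oligo(dT)-primed cDNA, limited PCR, tagmentation and 2 reads of 25 bases per fragment, per the labels' protocols. The deposited values are raw counts per gene symbol. STAR 2.7.3a, featureCounts and build mm10 are named in the submitters' processing notes. Which annotation and strand setting were used, and how multi-mapped reads were counted, is not given in the sources used here. Of 55011 listed genes, 28902 had at least 1 count.

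Groups were taken from the labels. In R 4.3.3, edgeR 4.0.16 was run on the counts: filterByExpr with a minimum count of 10 left 12414 genes, libraries were scaled by TMM, and a robust quasi-likelihood model with 1 coefficient per group was fitted to all 8 libraries (biological coefficient of variation 17.5%). P-values were adjusted by Benjamini-Hochberg over all tested genes, with a threshold of 0.05. A prior count of 2 makes fold changes of low genes smaller than their CPM ratios. SE is on the log2 scale and was derived as the absolute log2 fold change divided by the square root of edgeR's F statistic. A larger ratio of change to SE did not always go with a smaller p. Levels are TMM-normalised CPM; marker sums are CPM of the total count. The model was tested on simulated data. PCR reads without molecular identifiers make floors and counting intervals cover counting error only. Replicates of a group differed beyond counting noise (chi-square per degree of freedom 4.48 to 7.32 within groups). Xist in replicate 1 and Ddx3y in replicate 2 of every group show that no animal gave both libraries of a group alone. How many animals gave each library is not in the labels. The p-values speak of the spread among these libraries, which includes the difference between the sexes.

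Pparg and Foxp3 came first. Full values were due for the 15 largest changes in each direction among eligible called genes. Eligible genes had libraries that did not overlap between the genotypes and an average log2 CPM of at least 2. Every called gene could be named, as could the 4 genes of smallest p in a list. Ltb4r1 was named after its values were seen. Some genes that the rule allowed are not reported here. Members, lists and rules were chosen with earlier results of these data known. Lists are described by counts and medians, with no list test. Positions are from GENCODE M21 (mm10), in which 98.4% of tested genes were found by symbol. Alternatives covered scaling, filters, DESeq2 1.42.0, limma-voom (limma 3.58.1), the skin libraries alone, a replicate block, a fit without robust estimation, a test against a 1.5-fold change and each library left out in turn.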

Additional observations from a re-analysis of the deposited data

Results flagged for a closer look

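For 9 genes called in skin the genotype effect also differed between skin and spleen, by edgeR's test of the difference (skin minus spleen, log2). The difference was 2.06 for Vars, 3.61 for Rrs1, 3.23 for Psmd3 and 0.89 for Tpi1, the 4 genes higher in KO skin and below 0 in KO spleen. It was 1.18 for Cd96 and 1.83 for Tcf7, which rose in KO skin. It was -2.95 for Jup, -1.89 for Calcrl and -1.03 for Sesn1, which fell in KO skin. Of these, Vars alone passed under each of the 17 alternatives, with an adjusted p of at most 0.0461. The highest adjusted p over the alternatives was 0.111 for Rrs1 (without WT skin replicate 1), 0.106 for Psmd3 (without KO skin replicate 1), 0.142 for Tcf7, 0.195 for Jup, 0.207 for Calcrl, 0.37 for Cd96, 0.457 for Sesn1 and 0.642 for Tpi1.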

How the results depend on the processing

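No called gene changed direction under any of the 18 alternatives. Counts of calls, 111 in the report (38 higher, 73 lower), moved most with the fold threshold, the filter and the libraries. DESeq2 gave 62 higher, and limma-voom 113 lower. Without a low-count filter there were 344 (166 higher, 178 lower), and against a fold of 1.5 there were 20 (7 and 13). Leaving out 1 library at a time gave 29 to 209 calls, 12 to 107 higher and 14 to 102 lower. The 12 genes whose effect differed between tissues became 96 by DESeq2, 62 by limma-voom, 233 without a filter, 3 against a fold of 1.5, and 1 to 146 without single libraries. The cause was not tested. A fit with a replicate block gave 135 calls (46 higher, 89 lower), 107 of them shared. The replicate number followed Xist and Ddx3y expression in every group, so the block takes up sex as well as anything else that the number shares. The labels do not say that a number marks a shared animal, litter or day, and deviations of same-numbered WT and KO skin libraries correlated at 0.064 (0.0104 without the genes of X and Y). Of the named genes that did not pass, Cxcr6, Ltb4r1, Fos, Nfkb1 and Il1rl1 passed with the block (adjusted p = 0.0055, 3.48e-08, 0.00382, 0.0038 and 0.000288 in edgeR). By DESeq2 Ccr6, Cxcr6, Fos, Hspa1a, Lag3, Ltb4r1, Nfkb1 and S100a4 passed. In the skin libraries alone Cxcr6, Hspa1a, Lag3 and S100a4 did. Without robust estimation Cxcr6 and Ltb4r1 did (adjusted p = 0.000231 and 0.000177 in edgeR). By limma-voom Ccr6, Cd74, Cxcr6, Gadd45b, Hilpda, Hspa1a, Lag3, Lck, Ncor1, Pkm, S100a4 and Slc16a3 did. Over all named genes and alternatives, 2287 values kept their direction and their side of the threshold, 488 no longer passed and 85 passed where they had not. With 2 libraries a group, and totals of 3115832 to 4466963 counts, small changes of low genes were not detectable.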

Other observations

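Some lists of Treg biology held no gene that passed in skin in edgeR's fit without a replicate block. Of 12 tested T helper cytokines 9 were above 0 (median log2 fold change 0.28), and without single skin libraries the median ranged from -0.028 to 0.43. Of 14 tested TNF receptor family genes 9 were above 0 (median 0.11). Of 7 tested interleukin-1 family receptors 3 were above 0, and Il1rl1, the IL-33 receptor of tissue Tregs, measured 362 and 223 CPM in WT skin and 155 and 95.6 CPM in KO skin (log2 fold change -1.22, edgeR adjusted p = 0.353, and 0.000288 with a replicate block). Of 18 tested TGF-beta receptor and SMAD genes 6 were above 0 (median -0.10), and of 20 BCL2 family and GIMAP survival genes 12 were (median 0.051).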
